A study of Rattus norvegicus with 18 samples.

Results

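The array used here groups its probes into transcript clusters, each of which the platform annotation ties to 1 gene, to several genes or to none. Clusters that name several genes were chosen by their annotation alone: every feature whose gene symbol field holds more than 1 symbol. There were 505 of them among 68842 features that are not controls, beside 23446 features with 1 symbol and 44891 with none. The value of such a cluster may come from any gene it names, so each is called here by all its symbols and never by one.

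Total RNA from the nucleus accumbens, a reward area in the ventral striatum, was measured in 18 male Sprague-Dawley rats on 1 whole-transcript array per rat. The study concerns methamphetamine self-administration with footshock as the adverse consequence. The rats fall into 3 groups of 6 named control, shock resistant and shock sensitive, which are of one strain and sex and carry no allele or transgene in the labels. In this kind of model, resistant animals go on self-administering under shock while sensitive ones reduce it. The sources used here do not give the treatment of the control rats. Shock-resistant and shock-sensitive rats are called the shocked groups below, which is a short name and not a cause. For their differences from controls, methamphetamine and shock cannot be told apart here. Nothing in the labels names separate litters, cohorts or days, so p-values measure the spread between these arrays.

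A gene is hard to tell from another on an array for several reasons known from genome biology. Young gene copies keep nearly the same sequence, as in haemoglobin, olfactory receptor and keratin-associated protein families. A microRNA can lie inside a longer host transcript, from which it is cut. A processed pseudogene is a copy of a messenger RNA pasted elsewhere in the genome. Old and current names of a single gene can also stand side by side.

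All of these kinds were present. Of the 505 clusters, 461 held 2 symbols and the longest list held 13. Checked against current rat gene records, 454 named different genes, 35 named one gene under an old and a current symbol, 10 repeated one symbol and 6 differed in letter case alone. In 1 of the 454, Grpca;Prr4, a single symbol matched a current record, so 453 clusters still named more than 1 current gene. The named genes stood next to each other in gene order in 182 clusters, within 10 genes in 178, farther apart on one chromosome in 48 and on different chromosomes in 44, and 1 could not be placed. By family, 104 clusters named a chemosensory receptor, 44 a microRNA, 13 a ribosomal protein gene, 13 a zinc finger gene, 13 a gene of drug and steroid metabolism, 10 a histone, 6 a class I or related histocompatibility (RT1) gene, 6 a secreted tandem family, 3 protocadherins and 1 the alpha globins. A pseudogene was named in 33. Of 60 accumbens genes listed for neuropeptides, dopamine, the clock, neuronal activity and calmodulin kinases, 1 was named, Camk2b.

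The microRNA genes named by these clusters were matched to RefSeq mature sequences. Of 69 such genes, 65 had a mature sequence, and there were 103 mature sequences. The sequences below belong to the microRNA clusters whose values are described further on, among them that of the glutamate receptor gene Gria2. They are written from 5′ to 3′, with the seed, bases 2 to 8, in capitals.
rno-miR-29b-3p, from Mir29b2: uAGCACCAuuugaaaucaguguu
rno-miR-29b-5p, from Mir29b2: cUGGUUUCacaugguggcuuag
rno-miR-3550, beside MAST1: cCGAGCCCaucccugcccuag
rno-miR-344-3p, from Mir344-1: uGAUCUAGccaaagccugaccgu
rno-miR-344-5p, from Mir344-1: uCAGGCUCcuggcuagauuccagg
rno-miR-344a-5p, from Mir344a-2: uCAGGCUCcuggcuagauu
rno-miR-2985, beside Gria2: uGUUAUAGuaucccaccuaccc
The first lies at chr13:109098882-109098904 on the plus strand of GRCr8 and miR-3550 at chr19:40133568-40133588, also on the plus strand. The seeds of miR-344-5p and miR-344a-5p are the same, CAGGCUC, so the genes that the Mir344-1 and Mir344a-2 cluster names share the seed of this arm. The seed of miR-344-3p, the other arm of Mir344-1, is GAUCUAG.

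The alpha globin cluster shows the other kind of likeness. The windows from 250 bases before to 50 after the gene start of Hba-a1 and Hba-a2 were 96.0% identical. They lie at chr10:15842531-15842830 and chr10:15829089-15829388 of GRCr8, both on the minus strand, and the 12 differing bases of each are in capitals.
Hba-a1: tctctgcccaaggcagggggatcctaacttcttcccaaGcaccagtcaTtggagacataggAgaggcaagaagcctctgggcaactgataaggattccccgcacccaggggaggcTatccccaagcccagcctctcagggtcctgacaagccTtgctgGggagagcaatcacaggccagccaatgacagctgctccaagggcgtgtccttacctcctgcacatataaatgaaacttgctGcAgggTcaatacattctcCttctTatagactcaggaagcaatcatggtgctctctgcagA
Hba-a2: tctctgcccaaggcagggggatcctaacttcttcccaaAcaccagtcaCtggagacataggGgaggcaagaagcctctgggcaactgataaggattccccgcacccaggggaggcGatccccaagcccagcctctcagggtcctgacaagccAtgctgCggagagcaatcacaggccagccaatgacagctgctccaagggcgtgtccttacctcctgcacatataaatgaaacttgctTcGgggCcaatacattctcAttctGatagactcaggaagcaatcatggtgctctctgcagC
Both windows hold the letters TATAAA and CCAAT, which on either strand occur in 14.3% and 37.7% of 27457 rat windows of the same length. These letters are a description and not a binding site. Over the clusters with at least 2 such windows, 275 in all, the most alike pair of a cluster had a median identity of 53.7%. Pairs of genes from different clusters with no gene or name stem in common had a median of 49.0% over 223 pairs. The first median takes the best of all pairs in a cluster, which can raise it, and the second does not. Most of each window lies before the gene start, so these values do not show how alike the transcripts are. In 55 clusters a pair reached 80%, and in 4 pairs of that kind the windows overlap, as for Cers1 and Gdf1, whose windows are the same 300 bases.

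Values are on the log2 scale as deposited. The signal of a feature depends on its own probes, so levels of different features are not set against each other as amounts of RNA. A median of 6.37 over 1153 negative control features marks the background. Of the 505 clusters, 236 had a mean at or above it, 46.7%, against 51.6% of features with 1 symbol and 37.8% of all features. The median level of all features, 5.44, lay below this line. Only 2 of 104 chemosensory clusters did, Olr220;Or2d3 and Zfp329;Vom2r-ps60, the second of which also names a zinc finger gene. The share was 35 of 44 for microRNA clusters, 11 of 13 for ribosomal protein and for zinc finger clusters, and 0 of 6 for secreted tandem families.

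Some arrays stood apart in markers of cell types, measured on features with 1 symbol. The mean of 17 medium spiny neuron markers (the projection neurons of the accumbens) was 11.44 in control replicate 1 and 11.37 in shock-sensitive replicate 4, against 12.26 to 13.66 in the other 16 arrays. The mean of 9 choroid plexus markers (the ventricular tissue that makes cerebrospinal fluid) was 9.59 in shock-resistant replicate 4, against 6.20 to 6.69 elsewhere. Values that rest on these arrays are given with and without them, or with their range over the alternative runs listed below.

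No cluster naming several genes passed an adjusted p of 0.05 in limma in any comparison, and neither did any other feature, which makes 0% of all features in each comparison. The smallest adjusted p among the clusters was 0.182 for shock resistant against control, 0.273 for shock sensitive against control, 0.9996 for shock resistant against shock sensitive and 0.262 for any difference among the 3 groups. In the words that follow, higher and lower describe group means and not calls.

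At an unadjusted p under 0.05 in limma, 51 clusters differed between shock-resistant and control rats, 10.1%, against 11.0% of all features. Between shock-sensitive and control rats there were 31, 6.14% against 7.17%. Between the 2 shocked groups there were 28, 5.54% against 4.82%. For any difference among the 3 groups there were 41, 8.12% against 8.28%. Each share lay close to its background. The plot of shares splits them by direction.

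**Figure D1:**
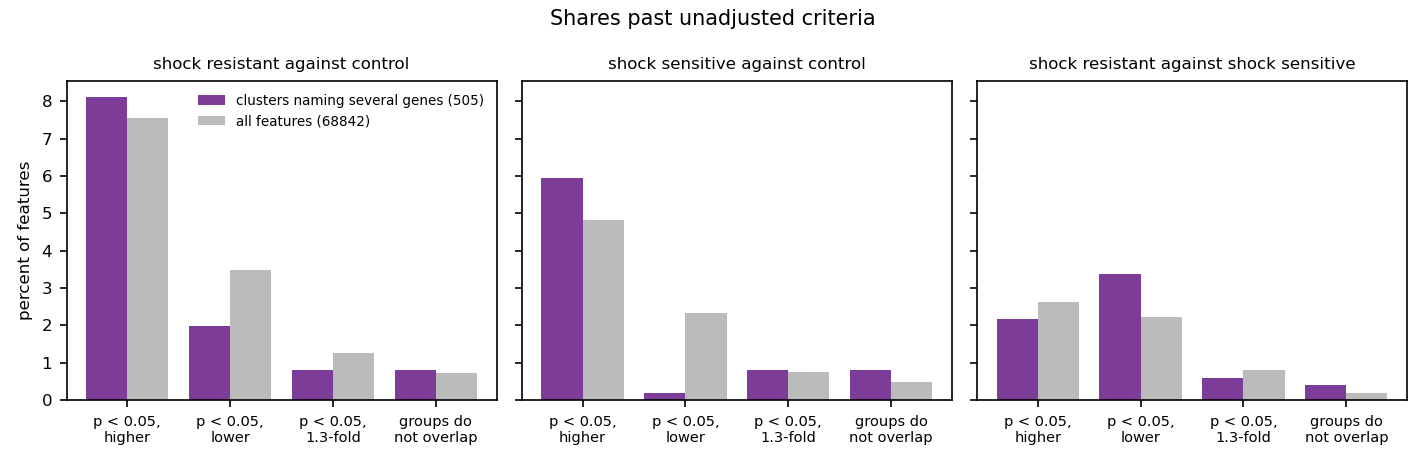
Percent of the 505 clusters naming several genes (purple bars) and of all 68842 features (grey bars) past each unadjusted criterion, one panel per comparison. The widest gap is among lower values for shock sensitive against control, with 1 cluster of the 505 beside 2.34% of all features, and no feature passed an adjusted p of 0.05. Behind that 2.34%, 292 of 23446 features with 1 symbol and 1320 of 44891 without a symbol were lower, a division that is not plotted.

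Over all features the split by direction moved with the scaling of the arrays in each comparison. Among the clusters it turned over for shock resistant against control alone. As deposited, 41 of the 51 were higher and 10 lower in shock-resistant rats than in controls, where 7.55% of all features were higher and 3.48% lower, so that 68.4% of the features past this p were higher. After quantile normalization the clusters split into 20 higher and 10 lower, with 51.3% of all such features higher. After centring each array on its median they split into 15 higher and 19 lower, with 37.0% of all such features higher. For shock-sensitive rats against controls the splits were 30 and 1 (4.83% and 2.34% of all features), then 20 and 2, then 20 and 2. Of all such features 67.3%, 51.5% and 43.9% were higher under these scalings. For shock-resistant against shock-sensitive rats they were 11 and 17 (2.62% and 2.21% of all features), then 9 and 18, then 5 and 19. Of all such features 54.3%, 48.4% and 43.2% were higher. The split over all features also moved with their level, without rescaling. Among features at or above the negative control median, 38%, 42.6% and 44.1% of those past this p were higher in the 3 comparisons. The clusters among them split into 9 and 6, 10 and 0, and 6 and 13. As deposited, of the 23446 features with 1 symbol, 1437 were past this p and higher and 836 lower in the first comparison. There were 835 and 292 in the second and 533 and 768 in the third, so these features leaned lower there as well. Whatever the p, 324, 314 and 276 of the 505 clusters had a higher mean in the 3 comparisons as deposited, beside 57.4%, 55.3% and 53.1% of all features, and 234, 235 and 225 did after centring. The median log2 difference of the clusters as deposited was 0.03, 0.02 and 0.01 in the 3 comparisons, against 0.02, 0.01 and 0.01 for all features.

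With a fold of at least 1.2 added, 12, 10 and 10 clusters remained in the 3 comparisons, beside 4.10%, 2.54% and 1.98% of all features. With a fold of at least 1.3, 4 clusters differed between shock-resistant and control rats, 0.792% against 1.26% of all features. There were 4 for shock sensitive against control, 0.792% against 0.758%, and 3 for shock resistant against shock sensitive, 0.594% against 0.815%. With a fold of at least 1.5 there were 0, 2 and 0, beside 0.199%, 0.126% and 0.206%. The largest difference of any cluster for shock sensitive against control was 0.66. In that comparison Smokwl2;Ddx21-ps11, also among the most variable clusters, differed by 0.51 to 0.78 over the alternative runs listed below. Its adjusted p in limma was 0.396 or above in each of them. Groups did not overlap for 4 clusters in the first comparison, 4 in the second and 2 in the third, where 0.736%, 0.479% and 0.176% of all features did the same. Both comparisons with control rats use the same 6 control arrays.

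Keratin-associated proteins cross-link the keratin filaments of the hair shaft, and their genes lie in tandem arrays. Clusters naming them held the smallest F p of all 505, and they were looked at as a group after their values had been seen. In Krtap10l1;Krtap10-8l1 the lowest, median and highest values were 6.03, 6.27 and 6.37 in controls, 6.40, 6.49 and 6.65 in shock-resistant rats, and 6.44, 6.55 and 6.67 in shock-sensitive rats. Every array of both shocked groups lay above every control array. The log2 difference was 0.28 (SE 0.07, adjusted p = 0.237) for shock resistant and 0.31 (SE 0.07, adjusted p = 0.281) for shock sensitive against control.

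In Krtap4-6;LOC100909494 the values were 5.30, 5.501 and 6.01 in controls, 5.72, 5.95 and 6.17 in shock-resistant and 5.95, 6.03 and 6.24 in shock-sensitive rats. One control array, replicate 1, reached into the range of both other groups, and the remaining controls lay below all of them. The log2 differences were 0.42 (SE 0.10, adjusted p = 0.252) and 0.51 (SE 0.10, adjusted p = 0.273). The mean of this cluster is below the negative control median. In Krtap9-1;LOC100910814 the differences were 0.32 and 0.37, with 5 of 6 arrays of each shocked group above all controls.

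All 9 Krtap clusters had a higher mean in both shocked groups than in controls, by 0.04 to 0.42 in shock-resistant and 0.02 to 0.51 in shock-sensitive rats. Of these, 5 and 6 had an unadjusted p under 0.05, where 7.55% and 4.83% of all features were past it and higher. The 9 were gathered after their values were seen, so these counts are a description. Their medians were 0.25 and 0.21, against 0.03 and 0.02 over all clusters. Between the shocked groups the median was -0.01 and 0 had an unadjusted p under 0.05. Krtap15-1;Krtap13-2l1, the smallest difference, turned below 0 after quantile normalization in both comparisons and after centring in shock-sensitive rats, and the other 8 kept their sign under both scalings. Features that name 1 Krtap gene were 44, of which 35 and 34 had a higher mean, with medians of 0.13 in each comparison. Over all 18 arrays, only 5 of the 9 clusters had a mean that reached the negative control median. Of these, Krtap10l1;Krtap10-8l1 and Krtap2-4l2;Krtap2-1 had control means below it, 6.24 and 6.30, and reached it through the shocked groups. Whether these values are transcript or background signal was not tested. Krtap2-4l2;Krtap2-1 is 1 of 8 clusters whose values equal those of another feature in all 18 arrays, here that of Krtap2-4l2 alone, and the pair counts as 1 measurement.

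**Figure D2:**
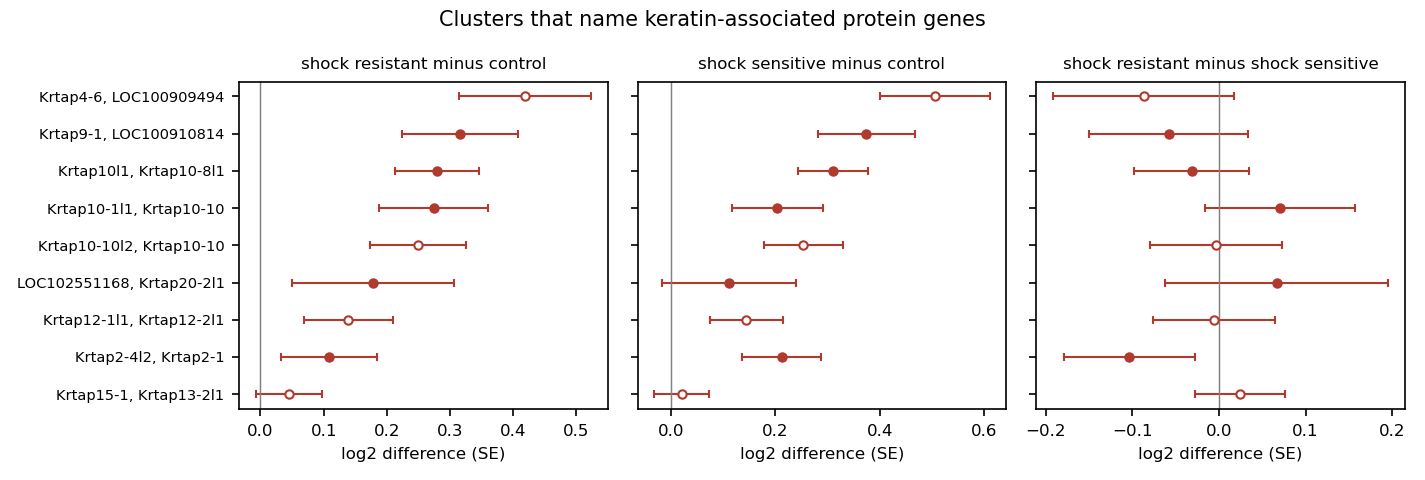
Log2 difference with its standard error for the 9 clusters that name keratin-associated protein genes, in 3 comparisons. Filled points have a mean at or above the negative control median and open points lie below it. All 9 points lie right of 0 against controls, of which Krtap15-1, Krtap13-2l1 turned below 0 after quantile normalization, and they scatter around 0 between the shocked groups.

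The smallest p of any cluster for shock resistant against control belonged to a pair of provisional genes that stand next to each other, LOC102551105;LOC102551003. Its values were 6.30, 6.48 and 6.59 in controls, 6.66, 6.83 and 7.15 in shock-resistant and 6.64, 6.76 and 6.97 in shock-sensitive rats. Neither shocked group overlapped the controls. The differences were 0.40 (SE 0.09, adjusted p = 0.182) and 0.33 (SE 0.09, adjusted p = 0.445).

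Calcium/calmodulin-dependent kinase II is a synaptic kinase built of several subunits, and the cluster Camk2g;Camk2b names its gamma and beta subunits, which lie on different chromosomes. Its values were 11.68, 11.89 and 12.33 in controls, 11.14, 11.54 and 11.80 in shock-resistant and 11.27, 11.86 and 12.47 in shock-sensitive rats. Of the shock-resistant arrays, 5 lay below all controls and all 6 lay below the shock-sensitive median. The log2 difference was -0.43 (SE 0.17, adjusted p = 0.376) against controls and -0.39 (SE 0.17, adjusted p = 0.9996) against shock-sensitive rats. Shock-sensitive rats differed from controls by -0.04 (SE 0.17).

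Features that name each gene alone were set beside it. Camk2g alone differed by -0.47 and -0.43 in the same 2 comparisons, and Camk2b alone by 0.17 and 0.24. Over the 18 arrays the cluster had an SD of 0.35. The SD of its difference from the Camk2g feature was 0.05, and that of its difference from the Camk2b feature was 0.56. So the cluster varied from array to array nearly as the Camk2g feature did and not as the Camk2b feature did. Its highest values were 12.47, in shock-sensitive replicate 4, and 12.33, in control replicate 1, the arrays with the lowest medium spiny marker mean, and lowest in shock-resistant replicate 1, where that mean was highest at 13.66. Without the first pair of arrays the differences were -0.35 and -0.28, and the part of the marker difference in them was not tested. In whole tissue, fewer cells of a type and less RNA per cell cannot be told apart.

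The same could be done for 239 clusters that have a feature of one of their genes with values of its own, 318 pairs in all. The difference from the partner varied less over the 18 arrays than the cluster itself in 88 of these pairs. Cluster and partner lay a median of 0.09, 0.07 and 0.07 apart in their log2 difference in the 3 comparisons, and more than 1.2-fold apart in 24, 10 and 17 pairs. Camk2b was the farthest in the comparisons of shock-resistant rats.

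Glutathione transferases of the alpha class conjugate glutathione to toxic compounds. Gsta1;Gsta3 differed by -0.37 (SE 0.20, adjusted p = 0.719) in shock-sensitive rats against controls, beside -0.39 for Gsta1 alone and -0.10 for Gsta3 alone. Without shock-sensitive replicate 5, the lowest array, the cluster differed by -0.22. The SD of the difference over the arrays was 0.07 from Gsta1 and 0.30 from Gsta3, and the cluster's own SD was 0.38. Fxyd7;Fxyd1, which names regulators of the sodium pump, differed by -0.31 in shock-resistant rats against controls, beside 0.16 for Fxyd1 alone. Sumo4;Sumo2, which names small ubiquitin-like modifiers, differed by -0.29 in shock-sensitive rats and the 3 features of Sumo2 alone by -0.16, -0.01 and 0.12. Without shock-sensitive replicate 3 the cluster differed by -0.18. Without control replicate 1 the Fxyd7;Fxyd1 difference was -0.20, and without shock-resistant replicate 2 it was -0.21.

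**Figure D3:**
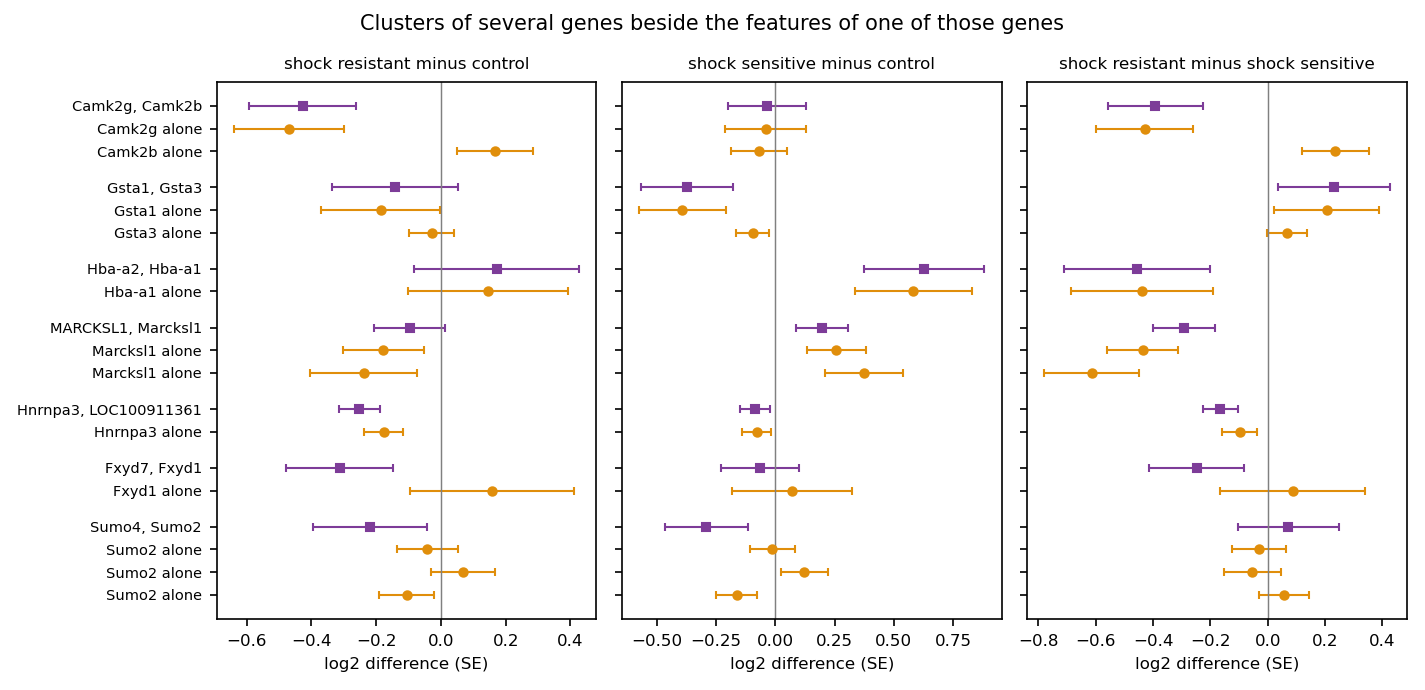
Log2 difference with its standard error for 7 clusters of several genes (purple squares) and for features that name 1 of their genes (orange circles), in 3 comparisons. The Camk2g, Camk2b square lies on the Camk2g circle and on the other side of 0 from the Camk2b circle, at -0.43 against 0.17 for shock resistant minus control.

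Marcksl1 encodes a membrane and actin regulator related to MARCKS. MARCKSL1;Marcksl1 holds one symbol in 2 spellings, so it does not mix genes. It differed by -0.29 (SE 0.11, adjusted p = 0.9996) in shock-resistant against shock-sensitive rats, and the features of Marcksl1 alone by -0.44 and -0.61. Its highest values were 8.71 and 8.72, in shock-sensitive replicates 4 and 5, and without shock-sensitive replicate 4 and control replicate 1 the difference was -0.22.

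Hnrnpa3 encodes an RNA-binding protein of the heterogeneous nuclear ribonucleoprotein family. Hnrnpa3;LOC100911361 ranged over 14.28, 14.53 and 14.68 in controls, 14.13, 14.24 and 14.37 in shock-resistant and 14.30, 14.43 and 14.48 in shock-sensitive rats. All 6 shock-resistant arrays lay below the control median and 4 lay below every control. The difference was -0.25 (SE 0.06, adjusted p = 0.248), beside -0.18 for Hnrnpa3 alone.

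Alpha globin pairs with beta globin in the haemoglobin of red cells. Hba-a2;Hba-a1 had 16.84, 17.53 and 18.35 in controls, 16.90, 17.91 and 18.31 in shock-resistant and 17.87, 18.07 and 18.88 in shock-sensitive rats. All 6 shock-sensitive arrays lay above the control median and 2 above every control, and the groups overlapped. The difference was 0.63 (SE 0.26, adjusted p = 0.652) against controls, while shock-resistant rats differed by 0.17 (SE 0.26), or 0.02 to 0.34 with 1 array left out. The Hba-a1 feature differed by 0.58 and 0.14, and its difference from the cluster had an SD of 0.07 over the arrays. Red cell markers other than globin averaged 5.15 ± 0.10, 5.19 ± 0.05 and 5.34 ± 0.13 (SD over 6 arrays) in control, shock-resistant and shock-sensitive rats, and 4 of the 5 measured lay below the negative control median. Both the cluster and that mean were highest in shock-sensitive replicate 5. Without that array the difference was 0.49, and the part of blood in it was not tested.

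**Figure D4:**
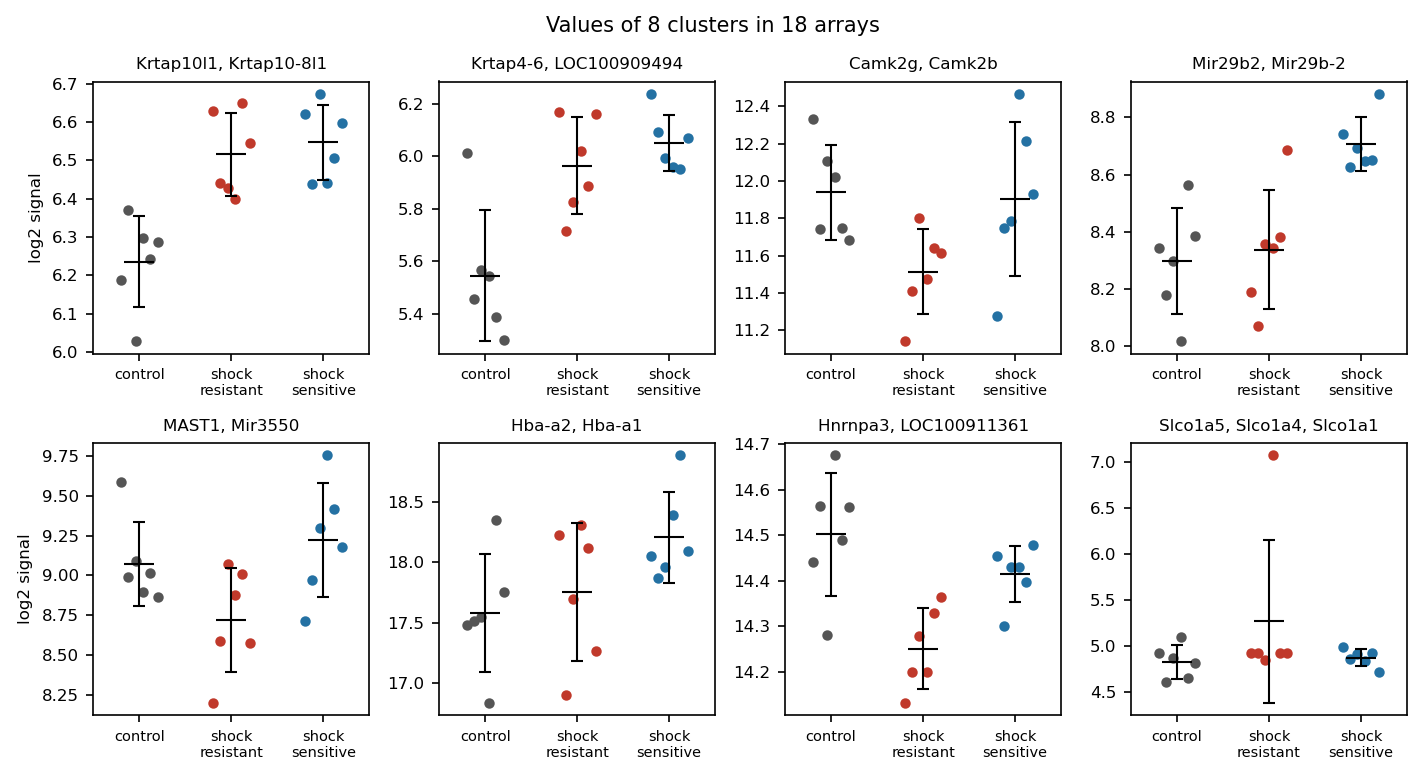
Log2 signal of 8 clusters in each of the 18 arrays, with the group mean and its standard deviation (bars); each panel has its own axis, which does not start at 0. Control points lie below both shocked groups for Krtap10l1, Krtap10-8l1, and a single shock-resistant array at 7.07 carries the group mean of Slco1a5, Slco1a4, Slco1a1.

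MicroRNAs repress messenger RNAs that match their seed. Of the 44 clusters that name one, 9 name microRNAs alone and 35 name a longer gene as well, and the array value does not tell a mature microRNA from its precursor or its host. At an unadjusted p under 0.05 there were 2 higher and 2 lower against controls in shock-resistant rats, 3 higher and 0 lower in shock-sensitive rats, and 3 higher and 4 lower between the shocked groups. The shares of all features past this p, in either direction, were 11.0%, 7.17% and 4.82%. After centring, the counts were 1 and 3, 1 and 1, and 2 and 4. Their median differences were 0.00, -0.01 and 0.01.

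Mir29b2;Mir29b-2 is one gene under an old and a current symbol, and miR-29b, whose sequences are given above, is known to repress collagens and DNA methyltransferases. Its values were 8.02, 8.32 and 8.56 in controls, 8.07, 8.35 and 8.69 in shock-resistant and 8.63, 8.67 and 8.88 in shock-sensitive rats. All shock-sensitive arrays lay above all controls and above 5 of the 6 shock-resistant arrays. The difference was 0.41 (SE 0.10, adjusted p = 0.365) against controls and shock-resistant rats differed from shock-sensitive rats by -0.37 (SE 0.10, adjusted p = 0.9996). Shock-resistant rats differed from controls by 0.04 (SE 0.10). The feature of Mir29b2 alone and another without a symbol held the same values in all arrays, so this is 1 measurement.

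MAST1 encodes a microtubule-associated kinase of neurons, and Mir3550 stands next to it. MAST1;Mir3550 had 8.87, 9.001 and 9.59 in controls, 8.20, 8.73 and 9.07 in shock-resistant and 8.72, 9.24 and 9.75 in shock-sensitive rats. All 6 shock-resistant arrays lay below the shock-sensitive median and 3 lay below every shock-sensitive array. The difference between them was -0.50 (SE 0.17, adjusted p = 0.9996). Its highest values stood in shock-sensitive replicate 4 and control replicate 1, and without both the difference was -0.40.

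Nrdc encodes the protease nardilysin. Nrdc;Mir761 had 11.55, 11.66 and 11.77 in controls, 11.69, 11.80 and 11.87 in shock-resistant and 11.55, 11.64 and 11.69 in shock-sensitive rats. Of the shock-resistant arrays, 5 lay above every shock-sensitive array, with a difference of 0.16 (SE 0.05, adjusted p = 0.9996). Mir344-1;Mir344a-2, whose 5p arms share a seed, differed by -0.27 (SE 0.11) between the shocked groups and by -0.23 (SE 0.11) in shock-resistant rats against controls. Gria2 encodes the subunit that makes AMPA receptors impermeable to calcium, and Gria2;Mir2985 differed by -0.14 and -0.20 (SE 0.10 each) from controls, with adjusted p of 0.618 and 0.702.

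**Figure D5:**
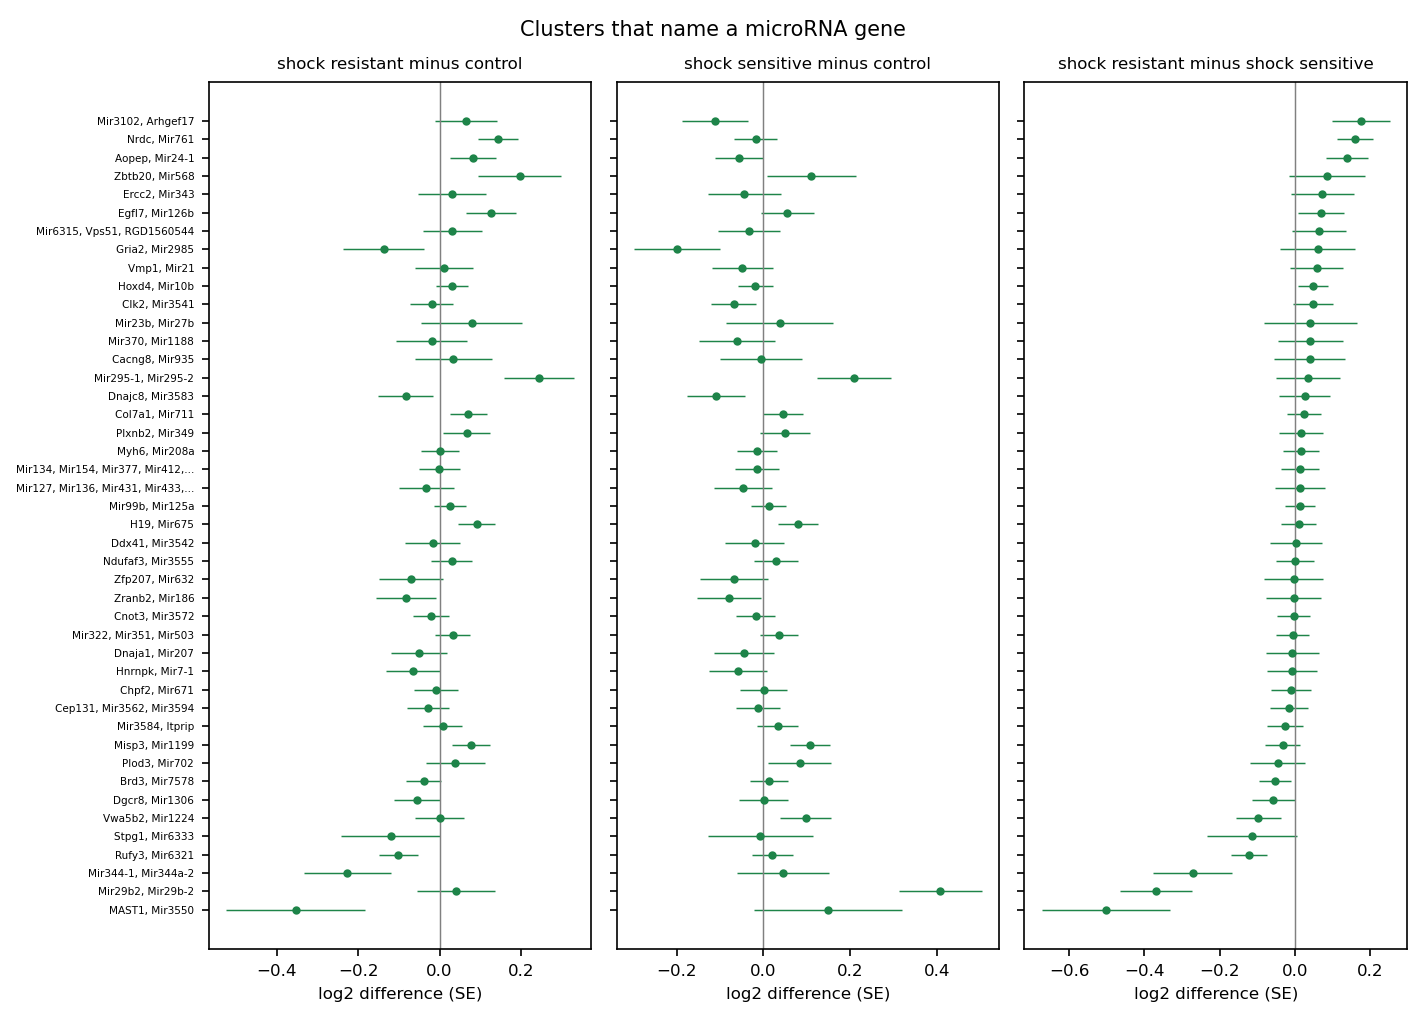
Log2 difference with its standard error for the 44 clusters that name a microRNA gene, in 3 comparisons, ordered by shock resistant minus shock sensitive. MAST1, Mir3550 at -0.50 and Mir29b2, Mir29b-2 at -0.37 lie farthest from 0 in that comparison.

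Chemosensory receptors detect odours and pheromones in the nose, and all but 2 of their 104 clusters lay below the negative control median. As deposited, 87 had a higher mean in shock-resistant and 83 in shock-sensitive rats than in controls, with medians of 0.08 and 0.07. Of all features 57.4% and 55.3% had a higher mean. After quantile normalization the counts were 68 and 70 with medians of 0.03 each. At an unadjusted p under 0.05, 14 were higher and 1 lower in shock-resistant rats as deposited, where 7.55% of all features were higher and 3.48% lower, and 4 and 3 after quantile normalization. In shock-sensitive rats 7 were higher and 1 lower, where 4.83% and 2.34% of all features were, and 3 and 2 after quantile normalization. Or7g30;Olr1143 was a non-overlapping case between the shocked groups, with 4.44, 4.72 and 5.05 in shock-resistant and 3.87, 4.23 and 4.43 in shock-sensitive rats (difference 0.51, SE 0.14, adjusted p = 0.9996). A second cluster naming the same receptors differed by 0.06.

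Such repeats exist for 16 gene sets, each named by a pair of clusters. The members of a pair lay a median of 0.06, 0.04 and 0.06 apart in the 3 comparisons and at most 0.21, 0.35 and 0.44. For Or1f21c;Or1f21b, whose lowest shock-resistant value of 5.269 lay just above the highest control value of 5.267, the difference was 0.29 in one cluster and 0.07 in the other. For Klra1 and Klra2, lectin-like receptors of natural killer cells, it was -0.27 and 0.06 between the shocked groups.

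Among RT1 genes, which present peptides to T cells, all 6 clusters had a higher mean in shock-resistant rats than in controls, beside 57.4% of all features. Of the 6, 2 had an unadjusted p under 0.05, where 7.55% of all features were past it and higher. After quantile normalization 5 of 6 were higher, and after centring 1 had such a p. RT1-A2;RT1-A1 did not overlap between shock-resistant (6.93 to 7.09) and control rats (6.68 to 6.92), with a difference of 0.15 (SE 0.06, adjusted p = 0.372). RT1-T24-4;RT1-T24-3 differed by 0.18 (SE 0.07).

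Most ribosomal protein clusters name a gene with a copy of it or with a neighbour, while Rpl37a;Rpl37a and Rps9;RPS9 hold 1 gene each. Of 13, 10 had a higher mean in shock-resistant than in shock-sensitive rats, beside 53.1% of all features, with a median of 0.18. Rps4x-ps9;Rps4x alone among them had an unadjusted p under 0.05, at 0.27 (SE 0.10, adjusted p = 0.9996), where 2.62% of all features were past it and higher. Features of Rps4x alone differed by 0.14 and 0.13. Rps10;Rps10l1, Rpl9-ps30;Rpl9 and Rpl32-ps1;Rpl32 differed by 0.35, 0.32 and 0.19, each with an SE of 0.21 to 0.25. Without shock-sensitive replicate 3 the first was 0.21 and the second 0.09.

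Zinc finger genes encode mostly DNA-binding repressors, and 10 of 13 clusters had a lower mean in shock-resistant rats than in controls, beside 29317 of all 68842 features. After quantile normalization 9 were lower and after centring 12. Of the 13, 11 lay at or above the negative control median, and all features there had a median difference of -0.03 in this comparison. An unadjusted p under 0.05 was held by 2 as deposited, where 3.48% of all features were past it and lower. Znf431l1;Zfp709l2 differed by -0.26 (SE 0.10) from controls and -0.27 (SE 0.10) from shock-sensitive rats. Zfp534l2;Rex2l2 differed by -0.21 (SE 0.09) from controls. Of the 10 histone clusters, 0 had an unadjusted p under 0.05 in limma in any comparison, with all adjusted p at 0.623 or above. Of the 13 clusters of drug and steroid metabolism 0 did as well. The protocadherin clusters, which gather up to 12 neighbouring cell adhesion genes, differed by at most 0.28 in size, in Pcdhb6;Pcdhb7 (-0.28, SE 0.17).

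Nid2-ps16;Nid2-ps14 names pseudogenes alone. Shock-resistant rats had 7.09, 7.45 and 7.56 and shock-sensitive rats 7.57, 7.67 and 7.98, without overlap. The difference was -0.29 (SE 0.09, adjusted p = 0.9996), and -0.25 (SE 0.09) against controls. Its highest array was shock-sensitive replicate 4. Over the alternative runs, arrays left out included, the difference between the shocked groups was -0.32 to -0.22.

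Slco1a5;Slco1a4;Slco1a1 names organic anion transporters, of which Slco1a4 is an endothelial marker of the blood-brain barrier. Slco1a4 is also on the list behind the endothelial marker mean, of which 5 of 6 genes were measured. The cluster was at 4.61 to 5.10 in controls and 4.72 to 4.99 in shock-sensitive rats. In shock-resistant rats 5 arrays lay between 4.85 and 4.93 and replicate 4 was at 7.07. That array also had the choroid plexus mean of 9.59, and its endothelial marker mean was 8.38 against 8.19 to 8.72 in the other arrays. The difference of 0.44 (SE 0.28) against controls was 0.08 without it.

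The cluster of ribosomal RNA, Rn18s;Rn45s;Rn28s;Rn5-8s, averaged 19.85 ± 0.15, 19.89 ± 0.03 and 19.88 ± 0.04 (SD over 6 arrays) in the 3 groups, close to the highest mean of any feature, 19.9, and differed by at most 0.03 between groups. Control replicate 1 was lowest at 19.55. Whether larger group differences can show so near the top of the range was not tested.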

How the data were processed

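One whole-transcript array per rat was made from 100 ng of total RNA, per the labels' protocols. The deposited values are log2, judged from their range, and were produced by the authors in Expression Console (Affymetrix), as named per the submitters' processing notes. The sources used here do not give its version, summarisation or normalization. Limma 3.58.1 (R 4.3.3) was fitted to all 68842 features that are not controls, with group as the only term, and p-values were adjusted over all of them by the Benjamini-Hochberg method. Precision is limited by 6 arrays per group.

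Gene symbols are those of the platform annotation, updated against RefSeq of GRCr8, where 1111 of 1113 matched. Sequences are from RefSeq, GRCr8. Clusters named in the text were chosen by rule: per comparison up to 8 higher and 8 lower with the smallest p and at least 1.2-fold, the 8 highest, the 6 most variable, and 3 per family. Not all clusters chosen so are described. The histone pattern also matched H19, an RNA gene, which was left out. Krtap clusters, LOC102551105;LOC102551003, the repeated gene sets and the other clusters without overlap were added after their values were seen. Members, lists and families were chosen with earlier results of these data known. Protein likeness of the named genes was not run, and promoter windows were compared instead.

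Simulated data with 100 features changed by 0.5 and 100 by 1 in shock-resistant rats against controls, over 68842 features, gave 64% and 100% recovered with 3 false calls. The simulated noise was normal and independent between features, without arrays that stand apart, so these figures need not hold for the real data. Alternatives were quantile normalization, centring, a filter on dim features, features with a symbol, trend and robust variance, array weights, a replicate block, groups alone, and each array left out. Leaving out control replicate 1 together with shock-sensitive replicate 4 was chosen after seeing the data. Figures used Python 3.11.15 and matplotlib 3.10.9.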

Additional observations from a re-analysis of the deposited data

Results flagged for a closer look

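Each value below is the highest or lowest of its 6 arrays and stands apart from the next by more than Dixon's 95% criterion allows. In all, 204 groups were looked at and 18 stood apart so, and chance alone gives about 1 in 20. Control replicate 1 was lowest for the medium spiny marker mean (11.4), the ribosomal RNA cluster Rn18s;Rn45s;Rn28s;Rn5-8s (19.5) and the Pcdhg cluster of 12 symbols (9.48), and highest for MAST1;Mir3550 (9.59). Shock-resistant replicate 4 was highest for the choroid plexus marker mean (9.59) and for Slco1a5;Slco1a4;Slco1a1 (7.07). Shock-sensitive replicate 4 was highest for Nid2-ps16;Nid2-ps14 (7.98) and RT1-A2;RT1-A1 (7.13). Shock-sensitive replicate 5 was highest for the red cell marker mean (5.58) and lowest for Gsta1;Gsta3 (10.3). Shock-sensitive replicate 3 was lowest for Sumo4;Sumo2 (9.63) and for the ribosomal RNA cluster (19.8). Shock-resistant replicate 1 was lowest for Nid2-ps16;Nid2-ps14 (7.09). Zfp14;Zfp566 was lowest in control replicate 4 (7.38) and highest in shock-resistant replicate 5 (7.58). Gsto1;Gsto2 was highest in control replicate 6 (8.94), Ace3;Ace in control replicate 3 (7.16), and Or1d2;Olr1520 was lowest in shock-resistant replicate 3 (3.77).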

How the results depend on the processing

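No cluster passed an adjusted p of 0.05 in any comparison under any alternative run, so each of those counts was 0, the range over arrays left out included (0 to 0). Over all features, 13 passed for shock resistant against control with array weights, 3 among features with a gene symbol and 1 with the replicate block. With 1 array left out, 0 to 3 features passed in that comparison, 0 to 2 for shock sensitive against control and 0 between the shocked groups. Counts at an unadjusted p under 0.05 moved more. For shock resistant against control, 51 became 30 after quantile normalization, 15 among features at or above the negative control median, where fewer features are tested, and 32 to 58 with 1 array left out (32 without shock-resistant replicate 1). For shock sensitive against control, 31 became 10 on the dim filter, 47 with array weights, and 24 to 45 with 1 array left out. For shock resistant against shock sensitive, 28 became 20 to 34 with 1 array left out. For any difference among groups, 41 became 19 on the dim filter and 26 to 47 with 1 array left out. With 1.3-fold added, the 4 for shock resistant against control became 2 on the dim filter, 2 with array weights, 12 at 1.2-fold, 0 at 1.5-fold and 1 to 7 with 1 array left out (1 without shock-resistant replicate 1, 7 without shock-resistant replicate 4). The 4 for shock sensitive against control became 10 at 1.2-fold, 2 at 1.5-fold and 3 to 6 with 1 array left out. The 3 for shock resistant against shock sensitive became 5 with array weights, 10 at 1.2-fold, 0 at 1.5-fold and 2 to 4 with 1 array left out. Apart from the filter, the cause was not tested. Without control replicate 1 and shock-sensitive replicate 4, 58, 35 and 19 clusters had an unadjusted p under 0.05. Updating symbols left 453 of the 505 clusters with several genes.

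Same-numbered arrays of different groups had deviations that correlated between -0.18 and 0.27, not all above 0.1. The numbers were therefore not treated as pairs, and this check cannot exclude a weak pairing. With a replicate block, 48, 30 and 25 clusters had an unadjusted p under 0.05 and 0 passed the adjusted threshold.

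Of the differences of single named clusters, these changed sign. Krtap15-1;Krtap13-2l1 was -0.0112 for shock resistant and -0.019 for shock sensitive against control after quantile normalization. For shock sensitive it was also -0.0053 after centring, and -0.0053 to 0.035 with 1 array left out. Nrdc;Mir761 for shock sensitive against control was 0.0024 after quantile normalization and -0.0376 to 0.0057 with 1 array left out. Slco1a5;Slco1a4;Slco1a1 in that comparison was -0.0009 to 0.0982. Mir29b2;Mir29b-2 for shock resistant against control was -0.0294 to 0.0934. Camk2g;Camk2b for shock sensitive against control was 0.0558 with array weights and -0.1476 to 0.0909 with 1 array left out. The cause was not tested.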
